A study of Mus musculus with 2 samples.

Results

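The genes described here make cholesterol and fatty acids, regulate that synthesis and move sterols within and out of the cell, and their signals were compared between control and Mll1 cKO primary myoblasts. The set was listed by name, as 32 genes of the sterol pathway and of the SREBP transcription factors, and a probe set belonged to it when the annotation of the array gave it exactly 1 of these symbols. This gave 34 probe sets for 31 of the 32 genes, among 21789 probe sets and 19938 genes with 1 symbol on the array, and Acat2 was not analysed here. Of the 31 genes, 17 encode enzymes of sterol synthesis, 5 control SREBP, 3 carry or export sterols and 6 make fatty acids.

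Both cultures came from the same line of hind limb myoblasts, the cycling descendants of satellite cells, with the genotype Rosa-CreER / MLL1 fl/fl. The Cre recombinase is made from the Rosa26 locus in all cells and enters the nucleus when 4-hydroxytamoxifen (4-OHT) binds it, upon which it removes part of the floxed Mll1 gene (exon 2 in the description of the series, exons 3 and 4 in the supplement of the study). The Mll1 cKO culture was given 500 nM 4-OHT in 0.01% ethanol for 7 days, the control culture was given 0.01% ethanol alone, and both then grew for 3 days without these agents per the labels, where the methods of the study give 2 days. Growth medium was Ham's F10 with 5 ng/ml FGF and 20% bovine serum, which contains lipoprotein cholesterol. Each condition had 1 Affymetrix MoGene 1.0 ST array, whose deposited values are log2 signals after RMA normalization. With 1 array per condition there is no spread between cultures and no test, and each difference below (Mll1 cKO minus control, on the log2 scale) is a value of these 2 arrays. In addition, 4-OHT and tamoxifen are known to bind the sterol isomerase EBP and to slow cholesterol synthesis in cultured cells, and the deletion and the drug cannot be told apart in this design. In bulk RNA, fewer cells of a kind and less RNA per cell cannot be told apart either. Kmt2a, which encodes MLL1, had log2 signals of 9.44 in control myoblasts and 9.66 in Mll1 cKO myoblasts. The deposited values give the whole transcript as 1 summary, so this checks nothing about the excised part. The study itself showed array values along the Mll1 transcript with the floxed exons marked. It also reported the deletion by RT-qPCR and the loss of MLL1 protein.

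Cholesterol is built from acetyl-CoA through mevalonate, isoprenoid units, squalene and lanosterol, and branches of the same pathway supply the isoprenoids that anchor small GTPases and lamins. SREBP2, encoded by Srebf2, and SREBP1, encoded by Srebf1, are made as membrane proteins of the endoplasmic reticulum. When sterols are scarce, SCAP escorts them to the Golgi, where proteases release the active factor. When sterols are plentiful, INSIG proteins hold SCAP back, while oxysterols activate the LXR receptors, which raise genes of sterol efflux. Dividing cells need sterol for new membrane, which they make themselves or take up from lipoproteins.

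SREBP commonly binds promoters with NF-Y, the factor of the CCAAT box. Promoter sequences from RefSeq (GRCm38.p6) were held for 24 of the 31 genes, and the 250 bases before the start were searched on both strands for CCAAT, for the E-box CACGTG and for TCACNCCAC, a form of the sterol regulatory element. CCAAT was in the promoters of 19 of the 24 genes (79.2%), against 38.8% of the 15614 array genes that have a promoter here and 33.9% of all 32851 promoters. The E-box was in 6 (25.0%), against 8.11% of those array genes and 6.02% of all promoters, and these were Abca1, Dhcr7, Hsd17b7, Insig1, Sc5d and Scap. TCACNCCAC was in 1, Hmgcs1, against 1.20% of those array genes and 1.05% of all promoters. These matches describe letters and not binding, and they shared no letters in the promoters printed. The 4 promoters printed here are those of the genes with the lowest differences (Idi1 and Hmgcs1), of the sterol enzyme with the highest (Tm7sf2) and of the gene with the highest of all (Abca1). Capitals mark the motifs, with CCAAT on the opposite strand reading ATTGG, and each runs 5′ to 3′ along its gene.

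Idi1, chr13:8885356-8885605, plus strand: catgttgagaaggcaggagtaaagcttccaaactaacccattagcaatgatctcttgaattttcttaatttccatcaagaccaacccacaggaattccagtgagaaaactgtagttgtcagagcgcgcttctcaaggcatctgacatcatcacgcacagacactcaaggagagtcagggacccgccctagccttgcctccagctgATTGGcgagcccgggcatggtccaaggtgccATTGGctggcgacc

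Hmgcs1, chr13:119690101-119690350, plus strand: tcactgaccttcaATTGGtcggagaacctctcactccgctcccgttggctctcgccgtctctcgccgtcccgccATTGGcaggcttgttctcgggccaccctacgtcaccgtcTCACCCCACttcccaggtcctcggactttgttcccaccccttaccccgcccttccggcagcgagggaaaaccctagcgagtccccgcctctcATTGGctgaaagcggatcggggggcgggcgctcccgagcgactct

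Tm7sf2, chr19:6067851-6068100, minus strand: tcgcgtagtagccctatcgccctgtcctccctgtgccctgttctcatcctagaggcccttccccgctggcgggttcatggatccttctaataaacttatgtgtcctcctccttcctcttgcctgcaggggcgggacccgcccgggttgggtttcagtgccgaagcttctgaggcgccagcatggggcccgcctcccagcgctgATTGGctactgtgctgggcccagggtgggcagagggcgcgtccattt

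Abca1, chr4:53159896-53160145, minus strand: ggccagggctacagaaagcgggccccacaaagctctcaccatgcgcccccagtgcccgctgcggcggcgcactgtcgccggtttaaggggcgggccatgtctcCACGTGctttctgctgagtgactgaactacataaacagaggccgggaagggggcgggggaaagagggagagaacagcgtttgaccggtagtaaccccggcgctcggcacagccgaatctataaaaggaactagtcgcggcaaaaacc

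In Idi1, the CCAAT boxes began 45 and 14 bases before the start. Hmgcs1 had CCAAT boxes from 237, 176 and 45 bases before its start, with the sterol element between them, from 137 to 129 bases before it. Tm7sf2 had 1 CCAAT box, from 47 bases before the start. Abca1 had an E-box from 147 bases before the start and no CCAAT match in this window.

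None of the 31 genes differed by more than 2-fold, where 1.16% of all 19938 genes were over 2-fold higher in Mll1 cKO myoblasts and 0.11% were over 2-fold lower. At 1.5-fold, Abca1 was higher and no gene was lower, where 4.86% of all genes were over 1.5-fold higher and 2.01% were lower. Among the 10257 genes with a mean log2 signal over 6, these shares were 7.28% and 1.89%, and none of the 28 members with such a signal passed in either direction. Without regard to size, 13 of the 31 genes were higher and 18 lower. Their median log2 difference was -0.08, beside -0.05 over all genes. Since signals and differences were related on these arrays, the members over a signal of 6 are best set beside genes over it. Of these 28 members 57.1% were lower, and their median was -0.06, whereas 41.3% of all genes over 6 were lower, and the median of those was 0.06. After quantile normalization 71.4% of these members and 50.2% of these genes were lower. The split depended on the scaling, with 9 members higher and 22 lower after the arrays were quantile normalized again, 10 and 21 after removal of the trend of difference on signal, and 15 and 16 after centring. The genes with 2 probe sets give a scale for error within the arrays, as 2 probe sets of the same gene with signals over 6 disagreed by a median of 0.10 and a 90th percentile of 0.41 over 449 genes. By that measure 22 of the 31 members had a difference larger than the median disagreement. A difference larger than the 90th percentile was found for 4, namely Idi1, Hmgcs1, Stard4 and Abca1. The share of all genes past these values was not counted, so whether the members exceed the background is not known. The mean signal of Abca1 was under 6, outside the range that gave this scale. Nor does the scale measure spread between cultures.

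**Figure D1:**
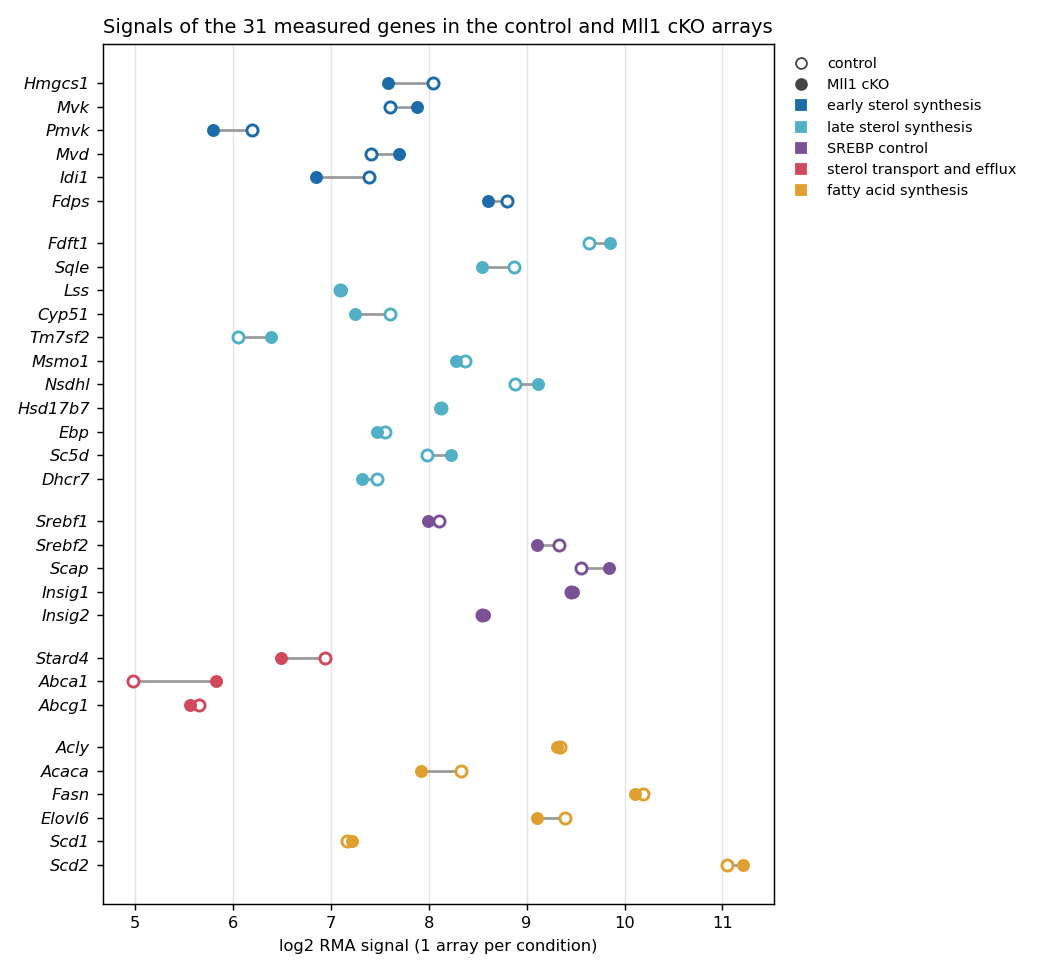
Log2 RMA signal of each of the 31 measured genes in the control array (open circle) and the Mll1 cKO array (filled circle), grouped and coloured by role, with a grey line joining the pair. The widest gap is that of Abca1, from 4.98 to 5.82, followed by Idi1, from 7.39 to 6.84, and most pairs lie close together.

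The early steps of sterol synthesis, from acetyl units to farnesyl diphosphate, held the 2 lowest differences of the set, and 4 of their 6 measured genes were lower and 2 were higher. Hmgcs1, the cytosolic HMG-CoA synthase that makes the substrate of the rate-limiting reductase, gave a log2 signal of 8.04 in control myoblasts and 7.58 in Mll1 cKO myoblasts and was 1.37-fold lower. Idi1, the isomerase that interconverts the C5 isoprenoid units, went from 7.39 to 6.84 and was 1.46-fold lower. It has 2 probe sets, which had differences of -0.53 and -0.56, so both read alike. Among the 2228 genes within 0.5 of its mean signal, 3.14% had a difference as low or lower, and for Hmgcs1 this share was 4.14%. For the other early enzymes it ran from 14.3% for Pmvk to 72.2% for Mvk. Pmvk, the kinase that adds the second phosphate to mevalonate, had the signals 6.19 and 5.80 and was 1.31-fold lower. Fdps, which joins isoprenoid units into farnesyl diphosphate, had 8.80 and 8.61 and was 1.14-fold lower.

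The other enzymes of this segment ran the other way. Mvk, mevalonate kinase, had log2 signals of 7.60 and 7.88 and was 1.21-fold higher. Mvd, which decarboxylates mevalonate diphosphate, had 7.41 and 7.70 and was 1.22-fold higher. Mvk and Mvd thus lay beside Pmvk in the pathway and on the opposite side of 0, so the early steps did not share a direction. Their median log2 difference was -0.29, and it lay between -0.36 and -0.24 under the other scalings. After the trend was removed or the arrays were quantile normalized again, Idi1 passed 1.5-fold, with log2 differences of -0.62 and -0.66.

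The late steps, from squalene to cholesterol, lay on both sides of 0, with 6 of 11 genes lower and 5 higher, and a median of -0.01 that became 0.04 after centring. This balance depended on the scaling, as 7 of 11 were lower with the trend removed or after quantile normalization, with medians of -0.08 and -0.09. Sqle, the squalene epoxidase and a control point of the late pathway, had log2 signals of 8.87 in control myoblasts and 8.55 in Mll1 cKO myoblasts and was 1.25-fold lower. Cyp51, the lanosterol demethylase, had 7.60 and 7.25 and was 1.28-fold lower. For their signals these were low values, with 9.17% and 7.78% of genes of similar signal as low or lower. The other late enzymes had shares from 19.8% for Dhcr7 to 77.1% for Tm7sf2. Dhcr7, which makes cholesterol from 7-dehydrocholesterol, had 7.47 and 7.32 and was 1.11-fold lower. Msmo1, which starts the removal of the C4 methyl groups, had 8.37 and 8.28, a difference of -0.10.

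Ebp, the isomerase that binds tamoxifen, had log2 signals of 7.56 in control myoblasts and 7.48 in Mll1 cKO myoblasts, a difference of -0.08. Hsd17b7, a ketosteroid reductase of the C4 demethylation, had 8.13 and 8.12, and Lss, which closes squalene epoxide into lanosterol, had 7.09 and 7.11. The differences of these 3 genes were smaller than the median disagreement of probe sets, and those of Hsd17b7 and Lss changed sign with the scaling. Of the higher genes, Fdft1, the squalene synthase that commits isoprenoids to sterols, had 9.63 and 9.85 and was 1.16-fold higher. Its 2 probe sets had differences of 0.28 and 0.15. Nsdhl, a C4 decarboxylase, had 8.88 and 9.12 and was 1.18-fold higher, and Sc5d, the desaturase ahead of Dhcr7, had 7.99 and 8.23 and was also 1.18-fold higher. Neighbouring enzymes, such as Fdft1 and Sqle or Sc5d and Dhcr7, therefore differed in opposite directions.

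Tm7sf2 and Lbr encode the enzymes that reduce the C14 double bond of the sterol, and their signals went opposite ways. Tm7sf2 gave a log2 signal of 6.05 in control myoblasts and 6.39 in Mll1 cKO myoblasts, and at 1.26-fold higher it had the highest difference of the sterol enzymes in the set. Lbr, which also anchors lamin B at the nuclear envelope and is no member of the set, had 9.04 and 8.0 and was 2.05-fold lower, and 0.31% of genes of similar signal had a difference as low or lower. After centring, Lbr had a log2 difference of -0.99 and no longer passed 2-fold. Over all 17 measured enzymes of sterol synthesis, which had a median of -0.08, 7 were higher and 10 were lower. The median was -0.03 after centring, -0.17 with the trend removed and -0.18 after quantile normalization.

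The genes that control SREBP differed little. Srebf2, which drives the sterol genes, had log2 signals of 9.33 in control myoblasts and 9.10 in Mll1 cKO myoblasts and was 1.17-fold lower. Srebf1, more tied to fatty acids, had 8.11 and 7.99, a difference of -0.11. Scap, the escort, had 9.55 and 9.84 and was 1.22-fold higher, so that the factor and its escort lay on opposite sides of 0. The INSIG genes, which retain SCAP in the endoplasmic reticulum, had nearly equal signals in the arrays. Insig1, itself a target of SREBP, had 9.45 and 9.47, and Insig2 had 8.54 and 8.57. Both had log2 differences of 0.02, which turned negative after trend removal or quantile normalization. The 5 genes had 3 higher and 2 lower members with a median of 0.02, and 1 higher and 4 lower under those scalings.

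Sterol transport and efflux held both a low and a high difference. Stard4, a carrier that moves sterol between membranes and a target of SREBP2, gave a log2 signal of 6.94 in control myoblasts and 6.49 in Mll1 cKO myoblasts and was 1.36-fold lower, and 5.37% of genes of similar signal were as low or lower. Abca1, which exports cholesterol and phospholipid to apolipoprotein A-I and is raised by LXR, had 4.98 and 5.82 and was 1.79-fold higher. Of the 2690 genes within 0.5 of its signal, 2.38% had a difference as high or higher. Its signals were low, below the median of 6.15 for the mean signal over all genes, and with the trend on signal removed its log2 difference was 1.01, just past 2-fold. Abcg1, the partner exporter that loads HDL and also an LXR target, was likewise dim, at 5.65 and 5.56, a difference of -0.09. The exporters thus lay on opposite sides of 0, except with the trend removed, where Abcg1 turned positive and 2 of the 3 transport genes were higher.

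**Figure D2:**
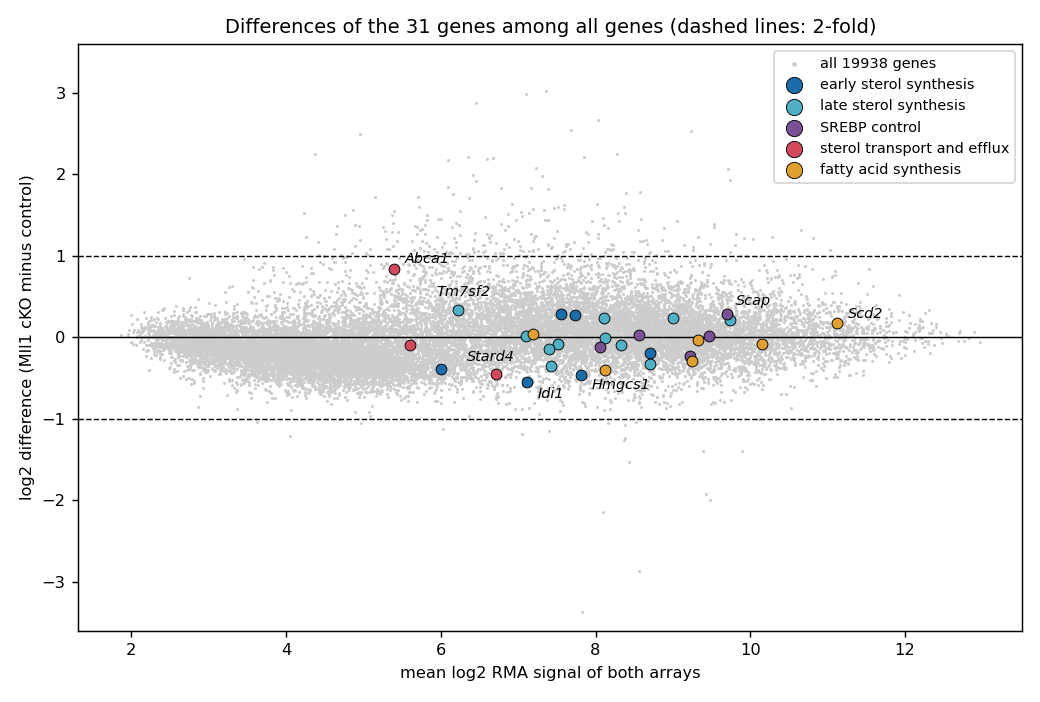
Log2 difference (Mll1 cKO minus control) against the mean log2 signal of both arrays, for all 19938 genes in grey and the 31 genes in the colours of their roles, with dashed lines at 2-fold. All 31 lie between the lines, from -0.54 for Idi1 to 0.84 for Abca1, and the grey cloud below a signal of 6 lies mostly under 0.

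Fatty acid synthesis had 4 lower and 2 higher genes and a median log2 difference of -0.06. Acaca, the acetyl-CoA carboxylase of the committed step, had log2 signals of 8.32 in control myoblasts and 7.92 in Mll1 cKO myoblasts and was 1.32-fold lower. Its 2 probe sets had differences of -0.33 and -0.48, and 6.27% of genes of similar signal were as low or lower than their mean. For the other genes of fatty acid synthesis this share ran from 10.1% for Elovl6 to 74.7% for Scd2. Elovl6, which elongates palmitate, had 9.40 and 9.11 and was 1.22-fold lower. Fasn, the fatty acid synthase, had 10.19 and 10.11, a difference of -0.08, and Acly, which splits citrate into cytosolic acetyl-CoA, had 9.34 and 9.31. The step between Acly and Fasn thus had a lower signal, while both flanking genes had differences under the median disagreement of probe sets. The difference of Acaca was larger than that median but under the 90th percentile of 0.41.

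The stearoyl-CoA desaturases, which make oleate and palmitoleate, were on the higher side. Scd1 had log2 signals of 7.17 in control myoblasts and 7.21 in Mll1 cKO myoblasts. Scd2 had 11.04 and 11.21 and was 1.13-fold higher. The desaturase genes are close relatives, and whether their probe sets tell them apart was not tested. Under trend removal or quantile normalization 5 of the 6 genes of fatty acid synthesis were lower and 1 was higher, and after centring 3 were lower and 3 were higher.

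Other genes of the pathway, listed by function with earlier results of these data known, were measured for 75 of 89 names, and 14 were not analysed here. Of the 75, 2 were over 2-fold higher and 1, Lbr, was over 2-fold lower. Over all genes these shares were 1.16% higher and 0.11% lower. At 1.5-fold, 5 were higher and 1 was lower, which is Lbr again. Over all genes 4.86% were higher and 2.01% lower at this fold, and 7.28% and 1.89% of genes with a signal over 6, so the count of 5 in 75 was near the background. In all, 42 were higher and 32 lower. The lower genes were 42.7% of the list, beside 55.6% of all genes and 41.3% of genes with a signal over 6. The median was 0.09, which became -0.00 after quantile normalization.

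Pltp, a phospholipid transfer protein of lipoproteins and an LXR target, had the highest difference of these lists, with log2 signals of 6.62 in control myoblasts and 8.06 in Mll1 cKO myoblasts, and was 2.72-fold higher. Lpin1, the phosphatidic acid phosphatase lipin 1, which is a target of SREBP and is prominent in muscle, had 6.82 and 7.96 and was 2.20-fold higher. Both stayed past 2-fold under each of the 3 scalings. Slc25a1, which carries citrate out of mitochondria to supply Acly, had 8.52 and 9.28 and was 1.69-fold higher. Agpat2, an acyltransferase of phospholipid and triglyceride synthesis, had 8.40 and 9.05 and was 1.57-fold higher. Idi2, an isomerase paralog of Idi1 found chiefly in muscle, was dim, at 3.26 and 4.12, a range where signals may be background. Its log2 difference of 0.86 (1.01 with the trend removed, which would make it a gene over 2-fold) is given as a value alone. Of the 7 other genes of sterol synthesis measured, with Lbr and Idi2 among them, 4 were higher and 3 lower, and 5 and 2 after centring.

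LXR genes other than Pltp and Abca1 showed smaller differences. The largest of these ran the other way, as Abcg8 went from 4.89 to 4.34 and was 1.46-fold lower, at dim signals. Of genes of similar signal, 5.01% had a difference as low or lower. Nr1h3, which encodes LXRα, had log2 signals of 5.44 in control myoblasts and 5.58 in Mll1 cKO myoblasts, a difference of 0.15. The list of LXR receptors and targets, which holds Abca1 and Abcg1 too, had 8 of 12 genes higher and 4 lower, and 6 of each after quantile normalization, where its median of 0.09 became 0.00. Among 10 genes of lipoprotein uptake and lysosomal sterol export, none passed 1.5-fold, and 6 were higher and 4 lower. Npc2, which hands lysosomal cholesterol to NPC1, had the largest difference, from 9.10 to 9.64, and was 1.46-fold higher, and after centring it passed 1.5-fold. Lipa, the lysosomal lipase that frees cholesterol from its esters, was 1.40-fold higher. The lipoprotein receptors did not share a direction, as Lrp8 and Scarb1 were 1.38-fold and 1.28-fold lower and Lrp1 was 1.24-fold higher, from 10.66 to 10.96. Vldlr, a dim receptor gene, had a difference of -0.02.

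The remaining lists held no gene past 2-fold other than Lpin1. Of 13 genes of sterol esterification, oxysterols and sterol carriers, 9 were higher and 4 lower with a median of 0.23, and the largest difference was that of Gramd1a, a sterol carrier at contacts with the plasma membrane, from 8.17 to 8.66. Of 12 genes listed as partners of SREBP processing, 8 were higher and 3 lower. Syvn1, a ubiquitin ligase of the endoplasmic reticulum, went from 8.53 to 8.95, and the protease gene Mbtps1 had a difference of -0.22. The list also held genes that act at promoters, such as Nfya, Nfyb and Nfyc of NF-Y, so its split does not describe processing alone. This list was evenly divided, 6 against 6, under trend removal or quantile normalization. The other 24 genes of fatty acid and lipid synthesis had 9 higher and 15 lower members and a median of -0.04, which turned to 0.01 after centring, with 13 higher and 11 lower.

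**Figure D3:**
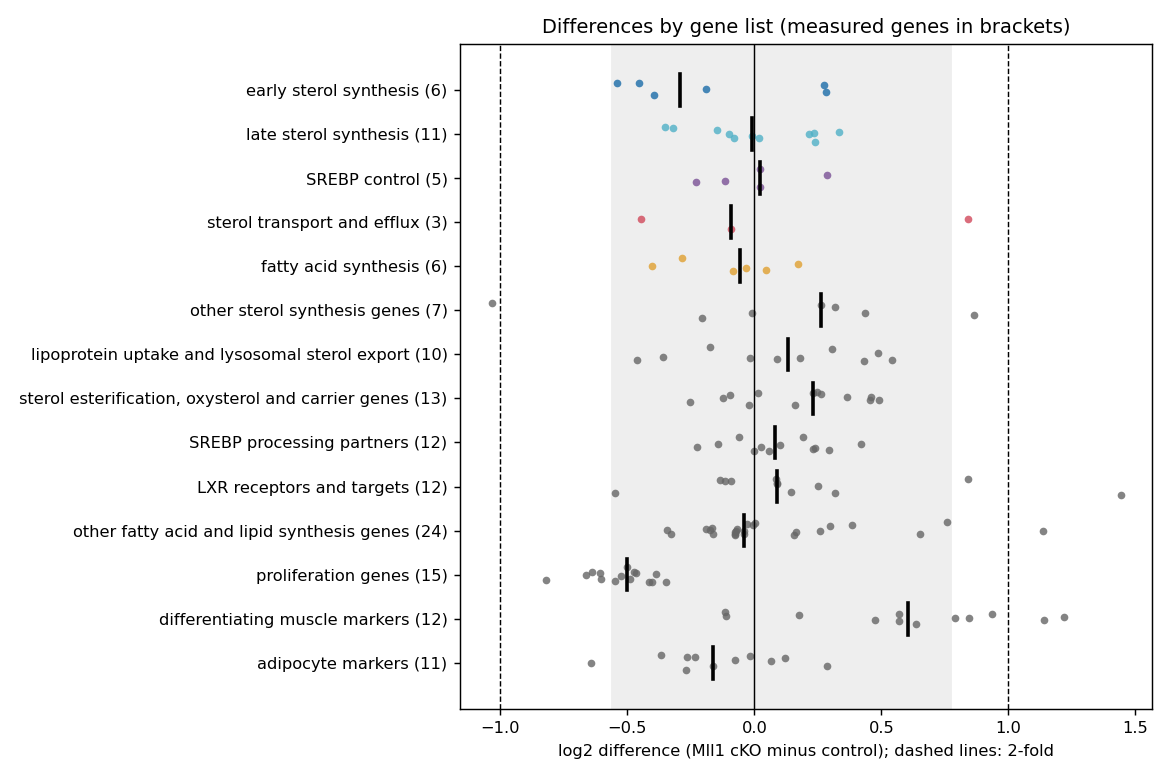
Log2 difference (Mll1 cKO minus control) of each gene, by list, with the number of measured genes in brackets, a black bar at the list median, the central 95% of all genes shaded (from -0.56 to 0.78) and dashed lines at 2-fold. The coloured lists scatter on both sides of 0, whereas all 15 proliferation genes lie below it and 10 of 12 markers of differentiating muscle lie above it.

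Markers of the state and type of the cells moved between the arrays as well. Of 15 measured proliferation genes, all were lower, beside 41.3% of all genes with a signal over 6. Their median was -0.50, and their summed linear signal went from 21293 to 14997. Of 12 markers of differentiating muscle, 10 were higher, beside 5981 of the 10257 genes with a signal over 6. The median of these markers was 0.60, and their sum went from 4145 to 6739. The part of either in the differences of the lipid genes was not tested. Of 10 myoblast markers, 4 were higher and 6 lower, with a median of -0.11, and only Myf5, from 9.51 to 6.14, passed 2-fold. Myod1 went from 12.15 to 12.27 and Pax7 from 10.29 to 10.02. The myoblasts had been purified on magnetic columns, by depletion of cells with CD11b, SCA1, CD45 or CD31 and selection for α7-integrin. Adipocyte markers had 3 of 11 higher and 8 lower (5 and 6 with the trend removed), and a sum of 727 in control myoblasts and 772 in Mll1 cKO myoblasts. Their defining genes Adipoq and Fabp4 had signals of 3.69 and 3.31 in control and 3.53 and 3.37 in the Mll1 cKO array, far under the median of all genes, and most of the sum was that of Pparg, at 8.61 and 8.90. The sums of the markers of fibroblasts, macrophages and endothelium were 644, 277 and 308 in control and 525, 350 and 254 in the Mll1 cKO array. Of the 10 macrophage markers 9 were lower, with a median of -0.23, and Cd68 alone was higher, from 6.08 to 7.47. Of fibroblast markers 8 of 10 were lower, and of endothelial markers 9 of 10, beside 55.6% of all genes. The fibroblast, macrophage and endothelial lists had median signals of 4.90, 4.19 and 4.67, a dim range where most genes were lower. With the trend on signal removed, 7 of 10 fibroblast, 7 of 10 macrophage and 8 of 10 endothelial markers were lower, beside 50.0% of all genes.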

How the data were processed

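RNA of 1 control and 1 Mll1 cKO myoblast culture was hybridised to Affymetrix MoGene 1.0 ST arrays. RMA normalization was done by the authors, who deposited log2 signals for 35557 probe sets. The RMA version was not given in the sources used here. Symbols were taken from the annotation of the array platform, which gave 21789 probe sets 1 symbol and 1621 several, and listed no symbol for 12147. Only those with 1 symbol were used, and a gene was given by the mean of its probe sets. Log2 differences are Mll1 cKO minus control, and folds were obtained from them as powers of 2. The cut-off of 2-fold is that of the study's methods. With 1 array per condition no test was made, and precision is limited by their number.

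The members and lists were chosen with earlier results of these data known. All members were named, with genes of the wider lists over 1.5-fold, the gene with the largest difference of a list without such a gene, and a few genes set by name, of which Lbr and Nr1h3 were analysed here. Other genes named were chosen after their values were seen, namely Lipa, Lrp8, Scarb1, Lrp1, Vldlr, Abcg8 and the markers given. Alternatives were folds of 1.5 and 3, centring on the median of all genes, subtraction of a lowess fit of difference against mean signal (span 0.3), quantile normalization of the deposited values again, the probe set with the highest signal, a mean signal over 6, and the mean of a list. Python 3.11.15 with numpy 2.4.6, pandas 2.3.3, statsmodels 0.14.6 and matplotlib 3.10.9 was used.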

Additional observations from a re-analysis of the deposited data

How the results depend on the processing

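No paired analysis was possible because each condition had 1 array. The count of members over 2-fold stayed at 0 in both directions under centring, quantile normalization, the probe set with the highest signal, a mean signal over 6 and a 3-fold cut-off. It became 1 higher, Abca1, with the lowess trend removed and at 1.5-fold. The median log2 difference of the sterol synthesis members (-0.08) and of the fatty acid members (-0.06) kept its sign under every alternative run, that of sterol synthesis between -0.18 and -0.03 and that of fatty acid synthesis between -0.10 and -0.01. That of the SREBP control members (0.02) was -0.0371 with the trend removed, -0.046 after quantile normalization and -0.0021 as a mean. That of the sterol transport and efflux members (-0.09) was 0.0369 with the trend removed, 0.10 as a mean and -0.45 at a mean signal over 6, where Stard4 alone was left. Single members changed sign only where their difference was small: Hsd17b7 and Acly after centring, Lss, Insig1, Insig2 and Scd1 after quantile normalization, and these last 4 with Abcg1 after trend removal. Over all genes, those over 1.5-fold lower numbered 401, and 263 after centring. The largest shift of any member was 0.16. The cause of these shifts was not tested. Signals below the median of all genes, as for Abca1 and Abcg1, limit what their differences can show.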
